A study of Rattus norvegicus with 8 samples.

Results

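The genes described here are the metallothioneins Mt1 and Mt2A, their transcription factor Mtf1, and 4 zinc transporters of the liver, Slc30a1, Slc39a14, Slc39a4 and Slc39a8. They were listed by name and were represented by all probe sets whose only gene symbol in the platform annotation is one of these 7. That gave 10 probe sets of the 31042 tested, and 7 of the 14217 genes that have a probe set with a single symbol. Mtf1 had 3 probe sets, Slc39a14 had 2 and the other genes had 1 each.

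Transcripts were measured by Affymetrix array in livers of male Sprague-Dawley rats weighing 180 to 200 g. The vehicle group received saline by both routes. The dexamethasone group received 1.5 mg/kg of this synthetic glucocorticoid into muscle and saline into the peritoneum. The AICAR group received 0.7 g/kg of AICAR, a nucleoside activator of the energy sensor AMPK, into the peritoneum and saline into muscle, and the combination group received both agents at these doses. All livers were taken 8 h after injection. Each of the 4 groups held 2 arrays. The labels give neither the age of the rats nor whether each array is a different animal, so p-values here reflect array-to-array spread that could be purely technical. The question addressed by the design was whether AMPK activation alters the response of the liver to a glucocorticoid.

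Metallothioneins are small cysteine-rich proteins that bind zinc and copper in the cytosol, and hepatocytes make them in large amounts. Their genes are transcribed in response to free zinc, which is sensed by MTF1 at short promoter sequences called metal response elements, and, in liver, in response to glucocorticoids and to interleukin-6. Transporters of the SLC30 (ZnT) family move zinc out of the cytosol, into vesicles or out of the cell, and those of the SLC39 (ZIP) family move it into the cytosol.

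The 250 bases upstream of the transcription start of Mt1, Mt2A and Slc30a1 are shown because these genes are known MTF1 targets and their transcripts differed in pattern across the treatments. The sequences are those of RefSeq on the GRCr8 assembly, read 5′ to 3′ on the strand of the gene, and capitals mark each match to the core of a metal response element, searched as TGCACNC or TGCGCNC on both strands. A match on the opposite strand reads as its reverse complement.
Mt1, chr19:10832976-10833225, minus strand: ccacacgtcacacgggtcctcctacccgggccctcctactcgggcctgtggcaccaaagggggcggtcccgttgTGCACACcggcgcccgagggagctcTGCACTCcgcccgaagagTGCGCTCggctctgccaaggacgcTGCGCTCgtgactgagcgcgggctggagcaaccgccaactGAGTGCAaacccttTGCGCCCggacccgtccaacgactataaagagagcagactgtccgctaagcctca
Mt2A, chr19:10838709-10838958, minus strand: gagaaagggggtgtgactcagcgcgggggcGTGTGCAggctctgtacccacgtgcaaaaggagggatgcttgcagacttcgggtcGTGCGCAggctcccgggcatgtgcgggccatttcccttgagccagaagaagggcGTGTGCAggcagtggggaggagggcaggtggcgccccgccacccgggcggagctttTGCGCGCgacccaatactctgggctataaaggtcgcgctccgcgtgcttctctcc
Slc30a1, chr13:106021769-106022018, plus strand: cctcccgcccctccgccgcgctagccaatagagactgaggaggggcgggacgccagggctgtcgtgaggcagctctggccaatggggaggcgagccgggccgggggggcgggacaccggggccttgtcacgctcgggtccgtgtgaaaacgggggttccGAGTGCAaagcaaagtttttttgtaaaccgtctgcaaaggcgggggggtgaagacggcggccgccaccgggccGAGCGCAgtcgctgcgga

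Promoters were matched for 5 of the 7 genes, with none for Slc39a14 and Slc39a4. The Mt1 window held 6 matches to the metal response core, the Mt2A window 4, the Slc30a1 and Mtf1 windows 2 each, and the Slc39a8 window 0. Of 27457 rat promoter windows of the same length, 21.2% held at least 1 match, 5.13% at least 2, 0.277% at least 4 and 0.0219% at least 6. The 5 windows held 59.2% to 69.2% G or C bases, and the windows compared were not matched for this. The Mt1 and Mt2A windows each held 1 TATA box core (TATAAA, either strand, in 13.1% of windows) close to the start, and no metal response match overlapped it. The antioxidant response core TGACNNNGC was in all 5 windows, with 1 match in those of Mt1, Mt2A, Slc30a1 and Slc39a8 and 2 in that of Mtf1, where 10.2% of windows held at least 1 match and 0.648% at least 2. The full glucocorticoid response palindrome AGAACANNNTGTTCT was absent from the 5 windows, as from all but 0.00364% of windows, and its arm TGTTCT was found once, in the Mtf1 window, against 17.1% of windows. The STAT palindrome TTCNNNGAA occurred once, in the Slc39a8 window, against 7.52% of windows. These are matches of letters in short windows, and no binding was measured.

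Both metallothionein genes rose after dexamethasone, and Mt2A also after AICAR, where the rise of Mt1 was not called. With both agents together the level of each was well below the sum of the single effects, and their interactions were the 2 largest in size among the 7 genes. Values are RMA expression levels on the log2 scale, so a difference of 1 is a 2-fold change. Each adjusted p is from limma with Benjamini-Hochberg adjustment over all 31042 probe sets, and a difference was called at an adjusted p under 0.05. Errors after ± are standard errors of a difference, with 2 arrays in each group compared.

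**Figure D1:**
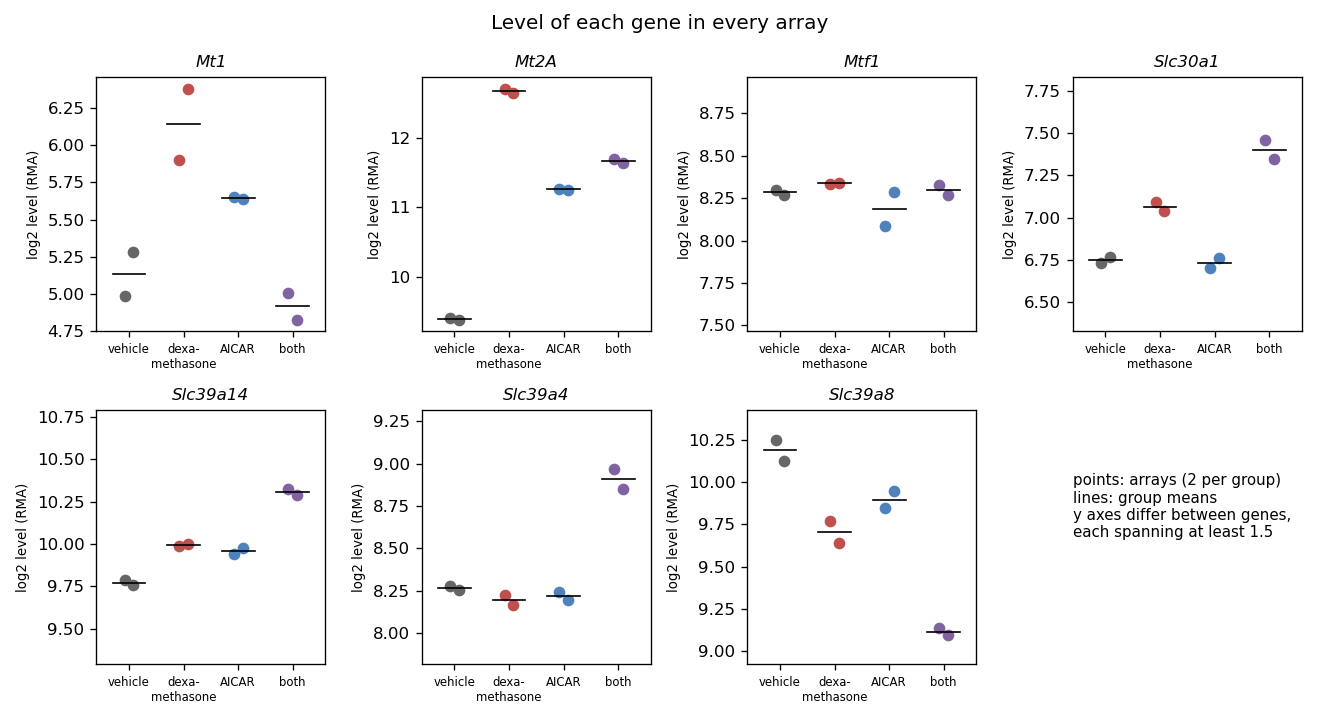
RMA log2 level of the representative probe set of each of the 7 genes on each of the 8 arrays, grouped by treatment, with points for arrays and a line for the mean of the 2 arrays of a group; the y axis differs between genes. Mt2A lay between 9.39 and 9.42 with vehicle and between 12.64 and 12.70 with dexamethasone, Mtf1 stayed between 8.09 and 8.34, and Slc39a4 reached 8.97 and 8.85 on the combination arrays.

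Mt2A (probe set 1388271_at) read 9.42 and 9.39 on the vehicle arrays, 12.70 and 12.64 with dexamethasone, 11.27 and 11.26 with AICAR, and 11.70 and 11.64 with both agents. The 4 groups did not overlap, and their order from low to high was vehicle, AICAR, combination, dexamethasone. Mt2A rose 9.64-fold after dexamethasone (3.27 ± 0.07, limma adjusted p = 7.46e-08). It rose 3.63-fold after AICAR alone (1.86 ± 0.07, limma adjusted p = 4.03e-06) and 4.82-fold after the combination (2.27 ± 0.07, limma adjusted p = 1.94e-07). The combination was lower than dexamethasone alone, by a difference of -1.001 ± 0.070 (limma adjusted p = 2.99e-05), and higher than AICAR alone by 0.41 ± 0.07 (limma adjusted p = 0.00233). The single effects sum to 5.13, against the 2.27 measured. Dexamethasone raised Mt2A by 3.27 without AICAR and by 0.41 with it, an interaction of -2.86 ± 0.10 (limma adjusted p = 1.57e-06), and 0.129% of all probe sets had an interaction at least as large in size.

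Mt1 (probe set 1388267_a_at) read 4.98 and 5.28 with vehicle, 5.90 and 6.38 with dexamethasone, 5.65 and 5.64 with AICAR, and 5.01 and 4.83 with both agents. The dexamethasone arrays were the highest and the combination arrays overlapped those of vehicle. The mean of this probe set over all arrays, 5.46, was near the array medians of 5.22 to 5.27, and RMA understates changes of dim probe sets. Fold changes of Mt1 and of the much brighter Mt2A are therefore not directly comparable. Mt1 rose 2.01-fold after dexamethasone (1.01 ± 0.16, limma adjusted p = 0.00255). After AICAR alone the difference was 0.51 ± 0.16, which was not called (limma adjusted p = 0.0688). It was called after centring on brighter probe sets (limma adjusted p = 0.04995) and with a trended robust prior (0.0137), and in no other alternative. With both agents it was -0.22 ± 0.16 from vehicle (95% interval -0.58 to 0.14, limma adjusted p = 0.373), where the single effects sum to 1.52. The combination was lower than dexamethasone, with a difference of -1.22 ± 0.16 (limma adjusted p = 8.50e-04), and lower than AICAR, with a difference of -0.73 ± 0.16 (limma adjusted p = 0.0078). The call against AICAR was lost without replicate 2 of the combination (limma adjusted p = 0.0553). The interaction of Mt1 was -1.74 ± 0.22 (limma adjusted p = 0.00141), and 0.593% of probe sets had one at least as large in size.

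A further probe set, 1371237_a_at, carries 3 symbols in the annotation (Mt1f, Ttr and Mt1) and was assigned to no gene. It read 11.81 and 11.80 with vehicle, 13.72 and 13.69 with dexamethasone, 13.25 and 13.16 with AICAR, and 12.02 and 11.97 with both agents. It rose by 1.90 after dexamethasone and by 1.40 after AICAR, while the combination differed from vehicle by 0.19 ± 0.07, not called (limma adjusted p = 0.0872). Its interaction was -3.11 ± 0.10 (limma adjusted p = 1.25e-06). The probe set that names Ttr alone, the hepatocyte's thyroid hormone carrier, differed from vehicle by -0.03, -0.08 and -0.03 in the treated groups, with no call. That probe set lay between 13.94 and 14.04 on all arrays and was among the brightest of all. Which transcripts 1371237_a_at measures was not tested. The RefSeq gene table also lists Mt1 pseudogenes, and signal from near-identical copies cannot be told apart from that of Mt1 on either probe set.

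**Figure D2:**
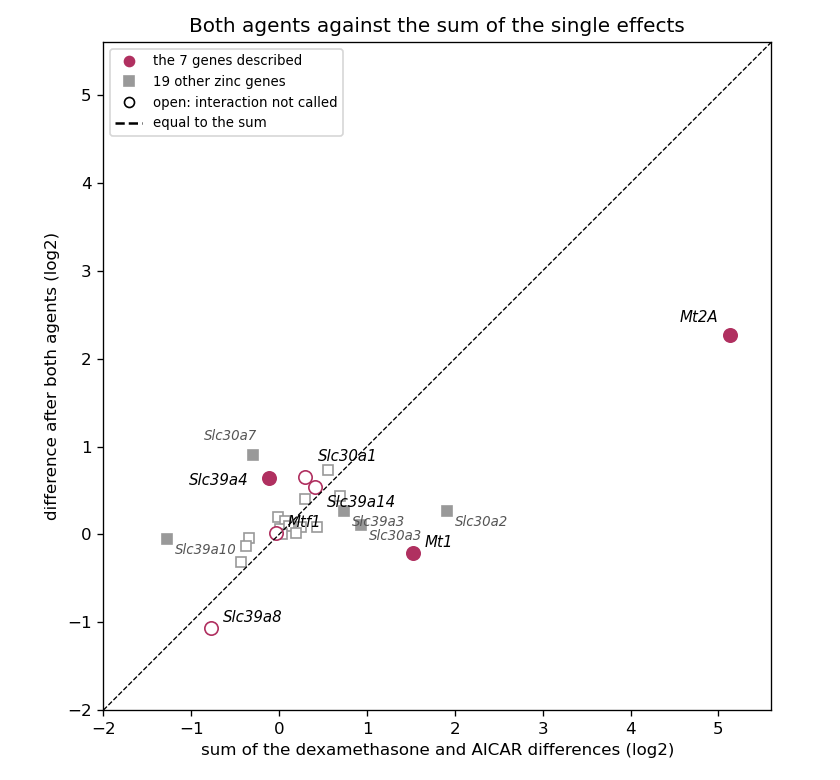
Sum of the dexamethasone and AICAR effects against the effect measured with both agents, each as a log2 difference from vehicle. Circles are the 7 genes, and grey squares are the 19 other zinc transporters and metallothioneins measured. Filled symbols had a called interaction and open symbols did not. Points on the diagonal line are additive on this scale. Mt2A lies at 5.13 and 2.27 and Mt1 at 1.52 and -0.22, below the line, and Slc39a4 at -0.12 and 0.64, above it.

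Mtf1, which encodes the zinc-sensing transcription factor of the metallothionein genes, had no called difference on its brightest probe set, 1377124_at. That probe set read 8.30 and 8.27 with vehicle, 8.34 on both dexamethasone arrays, 8.09 and 8.29 with AICAR, and 8.33 and 8.27 with both. The groups overlapped except that both dexamethasone arrays were above all others. The differences from vehicle were 0.05 ± 0.08 after dexamethasone (95% interval -0.14 to 0.25), -0.10 ± 0.08 after AICAR (-0.29 to 0.10) and 0.01 ± 0.08 after both (-0.18 to 0.20). The other 2 probe sets of Mtf1 disagreed after dexamethasone. One, 1390574_at, read 5.85 and 5.70 with vehicle and 6.13 and 6.39 with dexamethasone and was called higher (0.49 ± 0.12, limma adjusted p = 0.0219). The other, 1393372_at, read 4.93 and 4.88 against 4.29 and 4.57 and was called lower (-0.47 ± 0.14, limma adjusted p = 0.0432). No direction for Mtf1 can therefore be given.

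Slc30a1 encodes ZnT1, the zinc exporter of the plasma membrane, and it was highest with both agents. Its probe set, 1369099_at, read 6.73 and 6.77 with vehicle, 7.09 and 7.04 with dexamethasone, 6.70 and 6.76 with AICAR, and 7.46 and 7.35 with both. The AICAR and vehicle arrays overlapped, and those of the combination were above all others. After both agents Slc30a1 rose by 0.65 ± 0.08 (limma adjusted p = 2.82e-04), and it was 0.67 ± 0.08 above AICAR alone (limma adjusted p = 2.20e-04). The AICAR difference was -0.02 ± 0.08 (95% interval -0.19 to 0.15). The rise after dexamethasone alone, 0.31 ± 0.08, was called (limma adjusted p = 0.0207), but the call was lost without either vehicle array or either dexamethasone array (limma adjusted p from 0.0520 to 0.0904) and when these groups were fitted alone (0.0559). The difference of the combination from dexamethasone, 0.34 ± 0.08 (limma adjusted p = 0.0133), was lost without replicate 1 of the combination (0.106) or replicate 2 of dexamethasone (0.0644). The interaction, 0.36 ± 0.11, was not called (limma adjusted p = 0.0541).

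Of the 3 importers, Slc39a14 and Slc39a4 rose and Slc39a8 fell after both agents. Slc39a14 encodes ZIP14, which takes zinc into hepatocytes during inflammation and also carries manganese and iron. Its brighter probe set, 1373984_at, read 9.79 and 9.75 with vehicle, 9.987 and 9.999 with dexamethasone, 9.94 and 9.98 with AICAR, and 10.32 and 10.29 with both. Each treated group was above the vehicle arrays, and the combination was above the rest. Slc39a14 rose by 0.54 ± 0.07 after both agents (limma adjusted p = 5.03e-04). The differences after dexamethasone (0.22 ± 0.07, limma adjusted p = 0.0570) and AICAR (0.18 ± 0.07, limma adjusted p = 0.119) were not called. The combination was 0.35 ± 0.07 above AICAR (limma adjusted p = 0.00472) and 0.31 ± 0.07 above dexamethasone (limma adjusted p = 0.0123), the second call being lost without replicate 1 (0.0838) or replicate 2 (0.0586) of the combination. Its other probe set, 1382919_at, at 7.13 and 7.35 with vehicle and 7.86 and 8.09 with both agents, was also called higher (0.73 ± 0.12, limma adjusted p = 0.00185). On that probe set the combination was called above dexamethasone (0.42 ± 0.12, limma adjusted p = 0.0378) but not above AICAR (0.34 ± 0.12, limma adjusted p = 0.0620). The interaction of Slc39a14 was 0.13 ± 0.10 (95% interval -0.09 to 0.35), not called, and the sum of the single effects, 0.41, was near the 0.54 measured.

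Slc39a4 encodes ZIP4, best known as the importer of dietary zinc in the intestine. Its probe set, 1374366_at, read 8.28 and 8.25 with vehicle, 8.23 and 8.16 with dexamethasone, 8.24 and 8.20 with AICAR, and 8.97 and 8.85 with both agents. The combination arrays were above all others, and the single-agent groups overlapped each other. Slc39a4 rose by 0.64 ± 0.08 after both agents (limma adjusted p = 3.13e-04). After dexamethasone the difference was -0.07 ± 0.08 (95% interval -0.24 to 0.10) and after AICAR -0.05 ± 0.08 (-0.22 to 0.13), neither called. The combination was 0.71 ± 0.08 above dexamethasone (limma adjusted p = 2.98e-04) and 0.69 ± 0.08 above AICAR (limma adjusted p = 1.96e-04). The interaction of 0.76 ± 0.11 was called (limma adjusted p = 0.00215), and 4.99% of probe sets had one at least as large in size. It stayed called without any single array, between 0.70 and 0.82.

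Slc39a8 encodes ZIP8, a carrier of zinc and manganese. Its probe set, 1376709_at, read 10.25 and 10.12 with vehicle, 9.77 and 9.64 with dexamethasone, 9.85 and 9.94 with AICAR, and 9.14 and 9.10 with both agents. The combination arrays were below all others and the vehicle arrays above all others. Slc39a8 fell by 0.48 on the log2 scale after dexamethasone (-0.48 ± 0.08, limma adjusted p = 0.00441) and was 2.10-fold lower after both agents (-1.07 ± 0.08, limma adjusted p = 3.19e-05). The AICAR difference, -0.29 ± 0.08, was not called (limma adjusted p = 0.0560). The combination was below dexamethasone (-0.59 ± 0.08, limma adjusted p = 0.00145) and below AICAR (-0.78 ± 0.08, limma adjusted p = 1.75e-04). The interaction, -0.30 ± 0.12, was not called (limma adjusted p = 0.135).

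**Figure D3:**
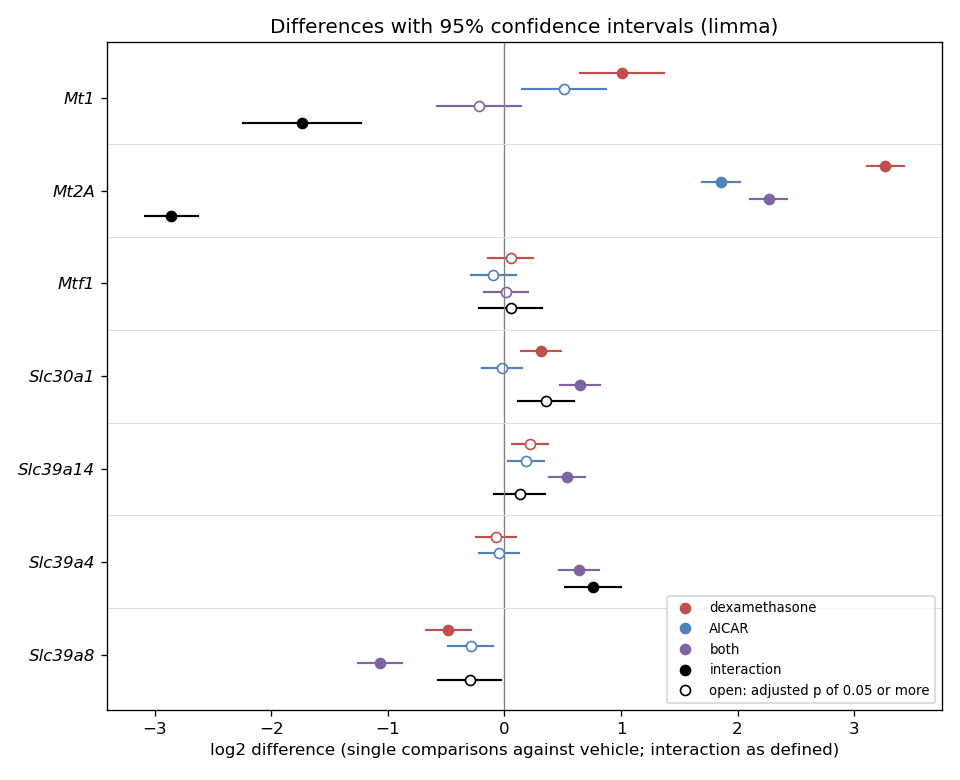
Log2 difference of each of the 7 genes from vehicle after dexamethasone, AICAR and both agents, and the interaction, as points with 95% intervals from limma; filled points were called and open points were not. Slc39a8 lies below 0 and Slc39a14 above 0 in all 3 comparisons, while Mt1 lies at 1.01 after dexamethasone and at -0.22 after both agents.

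Counted over the 7 genes, dexamethasone gave 3 higher (Mt1, Mt2A, Slc30a1) and 1 lower (Slc39a8), where of all 14217 genes, each by 1 probe set, 8.37% were called higher and 14.3% lower. AICAR gave 1 higher (Mt2A) and 0 lower, where 6.22% of all genes were called higher and 8.96% lower. The combination gave 4 higher (Mt2A, Slc30a1, Slc39a14, Slc39a4) and 1 lower (Slc39a8), beside 15.9% and 18.4% of all genes. Set against dexamethasone alone, the combination gave 3 higher (Slc30a1, Slc39a14, Slc39a4) and 3 lower (Mt1, Mt2A, Slc39a8), beside 14% and 11.3%. Set against AICAR alone, it gave 4 higher (Mt2A, Slc30a1, Slc39a14, Slc39a4) and 2 lower (Mt1, Slc39a8), beside 18.7% and 19.4%. The interaction was called higher for 1 gene (Slc39a4) and lower for 2 (Mt1, Mt2A), beside 11.9% and 8.05%. The median log2 difference of the 7 genes from vehicle was 0.22 after dexamethasone, -0.02 after AICAR and 0.54 after both, beside medians over all genes of -0.03, 0.00 and -0.01. Comparisons with vehicle share the vehicle arrays. With 2 arrays a group non-overlap is common. The arrays of 54.8% of all probe sets did not overlap between dexamethasone and vehicle, of 56.1% between AICAR and vehicle, of 61.6% between the combination and vehicle, of 57.5% between the combination and dexamethasone, and of 65.8% between the combination and AICAR.

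The other SLC30 and SLC39 transporters and metallothioneins made a list of 23 genes, of which 19 were measured. After dexamethasone 4 of these were called higher (Slc30a2, Slc30a3, Slc30a5, Slc39a3) and 1 lower (Slc39a10). After AICAR 3 were called higher (Slc30a2, Slc30a3, Slc39a7) and 1 lower (Slc39a10), and after both agents 4 higher (Slc30a5, Slc30a7, Slc39a7, Slc39a13) and 1 lower (Slc30a10). The shares of all genes called higher and lower were 8.37% and 14.3% after dexamethasone, 6.22% and 8.96% after AICAR, and 15.9% and 18.4% after both, so the counts after both agents were near or below them. Their median differences were 0.09, 0.10 and 0.09, beside the medians over all genes given above. The remaining metallothioneins measured, Mt3 and Mt4, were called in none of the 6 comparisons, and differed from vehicle after dexamethasone by 0.09 and 0.03.

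Among the exporters, Slc30a2 (ZnT2, which loads zinc into vesicles) read 4.88 and 4.74 with vehicle, 5.94 and 5.70 with dexamethasone, 5.89 and 5.54 with AICAR, and 5.01 and 5.15 with both. Its arrays were higher with either agent alone than with vehicle or with both. Slc30a2 rose by 1.01 after dexamethasone (limma adjusted p = 0.00101) and 0.90 after AICAR (limma adjusted p = 0.00396), and its interaction was -1.64 ± 0.19 (limma adjusted p = 7.99e-04). Slc30a7 (ZnT7, which supplies the secretory pathway) read 7.04 and 6.77 with vehicle, 6.75 and 6.59 with dexamethasone, 6.79 and 6.89 with AICAR, and 7.68 and 7.94 with both. It was high only on the combination arrays, as was Slc39a4, with a rise of 0.90 (limma adjusted p = 6.59e-04) and an interaction of 1.20 ± 0.17 (limma adjusted p = 0.00238). Slc30a5 (ZnT5, also of the secretory pathway) rose by 0.73 after both agents (limma adjusted p = 2.91e-04), and its rise of 0.42 after dexamethasone was lost without replicate 1 of vehicle (0.0611) or replicate 2 of dexamethasone (0.0569). Slc30a3 had called rises of 0.39 after dexamethasone and 0.54 after AICAR, both lost without replicate 1 of vehicle (0.167 and 0.0792). Slc30a10, which exports manganese, was lower after both agents (-0.31, limma adjusted p = 0.0434), a call lost under centring (0.0768) and without replicate 1 of vehicle (0.210) or either combination array (0.199 and 0.0963).

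Among the importers, Slc39a10 (ZIP10, at the plasma membrane) read 5.49 and 5.59 with vehicle, 4.60 and 4.69 with dexamethasone, 5.23 and 5.09 with AICAR, and 5.48 and 5.49 with both. It was lowest with dexamethasone alone, and the combination differed from vehicle by -0.06, not called. Slc39a10 fell by 0.90 on the log2 scale after dexamethasone (limma adjusted p = 1.28e-04), and its interaction was 1.22 ± 0.12 (limma adjusted p = 2.94e-04). Its lower level after AICAR, -0.38, was lost without either vehicle array or replicate 2 of AICAR (limma adjusted p from 0.0533 to 0.108). Slc39a7 (ZIP7, which releases zinc from the endoplasmic reticulum) rose by 0.46 after AICAR (limma adjusted p = 0.00608) and 0.44 after both agents (limma adjusted p = 0.00233). Slc39a3 had a called rise of 0.44 after dexamethasone that was lost without replicate 1 of vehicle (0.0676) or replicate 2 of dexamethasone (0.0667). The rise of Slc39a13 after both agents, 0.40, was lost without replicate 1 of vehicle (0.111) or either combination array (0.105 and 0.0610).

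**Figure D4:**
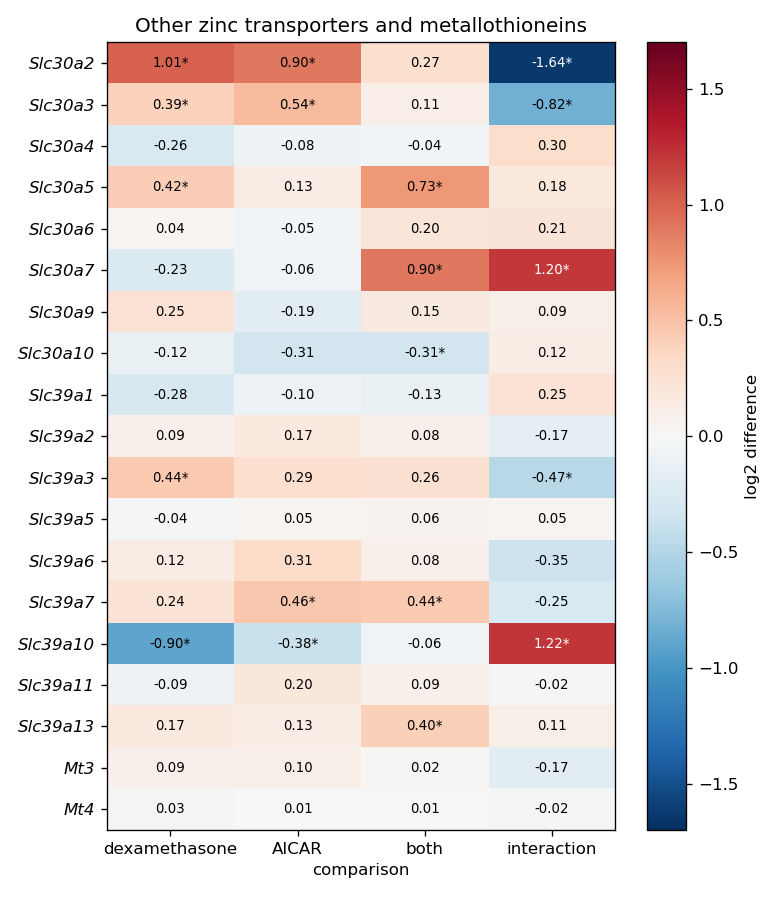
Heat map of the log2 difference of the 19 other zinc genes (rows, by family) from vehicle after dexamethasone, AICAR and both agents, and of the interaction (columns); red is higher, blue is lower and an asterisk marks a called difference. Slc30a2 stands at 1.01 and 0.90 with the single agents, Slc30a7 at 0.90 with both, and Slc39a10 at -0.90 with dexamethasone, while Mt3 and Mt4 lie near 0.

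Likeness of pattern was measured as the root mean square difference over the 8 arrays after the vehicle mean of each gene was subtracted, among 14216 other genes. The genes most like Mt1 were Acot12 (0.14), Pdzph1 (0.15), Acsf2 (0.16), Tmem86a (0.17) and Fasn (0.20). Fasn, the fatty acid synthase gene, differed from vehicle by 1.03, 0.37 and -0.38 after dexamethasone, AICAR and both, beside 1.01, 0.51 and -0.22 for Mt1. Mt2A came 14146th in likeness to Mt1, at 1.82, while Mt1 came 378th in likeness to Mt2A at the same value. The levels of Mt1 and Mt2A had a Pearson correlation of 0.57 over the 8 arrays. The genes most like Mt2A were further from it, namely Cyp4a8 (0.59), Fer1l5 (0.62), Cyp1a1 (0.78), Slc13a5 (0.86) and RT1-DMa (0.89). Those most like Slc39a14 were Fam171b, Ifi27l2b, Hsd17b10, Sec61g and Arf1, between 0.04 and 0.05, and Slc30a1 was 288th at 0.13. This measure depends on the size of the differences as well as their order.

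Genes known to respond to glucocorticoids were set beside the metallothioneins. All 8 of a short list were called higher after dexamethasone (median 1.48), where 8.37% of all genes were. The interaction was called lower for 7 and higher for 1 (median -1.14). Of all genes, 8.05% had an interaction called lower and 11.9% higher. Set against AICAR alone, the combination was called higher for 4 of the 8 and lower for 2, beside 18.7% and 19.4% of all genes. The list was chosen with earlier results of these data known, so these counts are not an independent check. Tsc22d3, a direct glucocorticoid receptor target, rose by 2.05 after dexamethasone and 1.44 after both. Fkbp5, another receptor target, rose by 1.40 and 2.25, with an interaction of 1.08, opposite in sign to that of Mt2A. Lpin1, a phosphatidate phosphatase, rose by 2.43 after dexamethasone and differed by -0.37 from vehicle after both, with an interaction of -3.20 (limma adjusted p = 2.63e-06). Differences in interaction between these genes and the metallothioneins were not tested.

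The samples are whole liver, so fewer cells of a type and less RNA per cell cannot be told apart. All 12 measured hepatocyte markers were bright in every group (median level 13.7 to 13.9), and their median difference from vehicle was 0.03, -0.03 and -0.01 in the treated groups, with 1, 0 and 2 called higher and 1, 1 and 3 called lower. Most Kupffer cell and macrophage markers were called lower after dexamethasone and after both agents, and most were not after AICAR. Of 11 of these markers measured, 10 were called lower after dexamethasone (median -1.12) and 11 after both agents (median -4.02). After AICAR 3 were called higher and 1 lower (median 0.26). Their summed linear level was 5836 to 5935 with vehicle, 2573 to 2836 with dexamethasone, 6314 to 6374 with AICAR and 663 to 667 with both, where Cd5l, Cd163, Adgre1 and Aif1 had means below 3.84, the smallest of the lower quartiles of the 8 arrays. The part of any cell type in the differences of the genes described here was not tested. The other marker lists had, after dexamethasone, AICAR and both, 5, 3 and 9 of 12 lymphocyte markers called lower and 5, 1 and 4 of 8 sinusoidal endothelial markers called lower. Of 11 stellate cell markers 2, 6 and 5 were called higher and 3, 0 and 3 lower, and of 6 neutrophil markers 0, 3 and 3 were higher and 3, 0 and 0 lower. Of 6 erythroid markers 3, 1 and 3 were called lower and 0 higher, and of 6 cholangiocyte markers 0, 1 and 1 were called higher and 0, 1 and 0 lower. Of all genes, 8.37%, 6.22% and 15.9% were called higher in these comparisons and 14.3%, 8.96% and 18.4% lower. With so few markers, the hepatocyte and cholangiocyte counts were near these shares. Control probe sets for RNA quality also moved with treatment. The 3′ minus 5′ difference of actin was 2.20 to 2.26 with vehicle, 2.03 to 2.04 with dexamethasone, 1.79 to 1.84 with AICAR and 1.77 to 1.83 with both, and its part was not tested either. Arrays of a group correlated at 0.997 to 0.998 over probe sets, and arrays of different groups at 0.979 to 0.993.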

How the data were processed

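The deposited table gives 1 RMA value per probe set and array on the log2 scale; per the submitters' processing notes the authors used RMA and affy. Versions and the base of the logarithm are not given in the sources used here, and log2 was inferred from the range. RMA understates changes of dim probe sets. After removal of 57 control probe sets, 31042 of 31099 were tested: 20826 had 1 gene symbol, 436 several and 9780 none. The RefSeq table of GRCr8, matched by 20758 of 20826 gene IDs, served for names and promoters. The probe set brightest on average stood for its gene.

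Groups were compared in limma 3.58.1 (R 4.3.3) by fitting all 8 arrays with a coefficient for every group and moderated variances (residual df 4, prior df 4.58). The 6 comparisons were the treatments against vehicle, the combination against either agent, and the interaction, meaning the dexamethasone effect in the presence of AICAR minus its effect in the absence of AICAR. A two-sided exact permutation test of 2 against 2 arrays has a minimum p of 0.333 and was not used. The fit was tested on simulated data for dexamethasone against vehicle (31042 probe sets). It found 42% of the changes of size 0.5, 88% of those of size 1, and 100% of those of size 2 or 3. Of its 170 calls 5 were false. Only 50 probe sets were changed at each size, and the data gave 5726 calls, so the adjusted threshold was stricter in the simulation. These shares therefore do not carry over to the data. Array medians ran from 5.22 to 5.27, and the number of arrays limits the precision.

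The 7 genes and the lists were chosen with earlier results of these data known. The rule named all probe sets of the 7 genes in all comparisons; from the zinc lists, per comparison, genes called with at least a 2-fold change or otherwise the 2 with the smallest p; from other lists up to 4 called genes; and the 5 genes nearest in pattern to Mt1, Mt2A and Slc39a14. Slc30a3 and Slc30a5 after dexamethasone, Slc30a10, and Fkbp5 and Tsc22d3 in comparisons where the rule did not pick them were chosen after their values were seen. The alternatives dropped dim probe sets, used a trended robust prior, fitted the compared groups alone, added the replicate number as a block, rescaled by cyclic loess or by centring on brighter probe sets, averaged the probe sets of a gene, or left out each array in turn.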

Additional observations from a re-analysis of the deposited data

Results flagged for a closer look

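For 3 genes the dexamethasone effect differed between rats with and without AICAR by the interaction test of limma with Benjamini-Hochberg adjustment. For Mt1 it was 1.01 without AICAR and -0.73 with it, a difference of -1.74 ± 0.22 (adjusted p = 0.00141). For Mt2A it was 3.27 without AICAR and 0.41 with it, a difference of -2.86 ± 0.10 (adjusted p = 1.57e-06). For Slc39a4 it was -0.07 without AICAR and 0.69 with it, a difference of 0.76 ± 0.11 (adjusted p = 0.00215). Values are on the log2 scale with standard errors, from 2 arrays in each group.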

How the results depend on the processing

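The count of the 7 genes called after AICAR was 1 as reported, 2 under centring, cyclic loess, gene means or the filter on dim probe sets, and 4 with the trended and robust prior, which called Mt1, Slc39a14 and Slc39a8 as well as Mt2A. The count for the interaction was 3 as reported and 5 with that prior, which added Slc30a1 and Slc39a8. Without 1 array at a time the counts were 3 after dexamethasone, 1 after AICAR, 5 after both, 4 to 6 and 5 to 6 for the combination against dexamethasone and against AICAR, and 3 for the interaction. Over the values of single genes, 445 of the alternatives kept direction and call, 17 gained a call, 10 lost one and 11 changed sign. The sign changes were all in differences that were not called. Mtf1 turned to 0.026 for the combination against dexamethasone with gene means, to -0.0026 and -0.062 for the interaction under centring and cyclic loess, and, without 1 array at a time, ranged from -0.196 to 0.0050 after AICAR, from -0.018 to 0.043 after both and from -0.047 to 0.154 for the interaction. Slc30a1 after AICAR turned to 0.023 under centring and 0.016 under cyclic loess and ranged from -0.051 to 0.010 without 1 array at a time, and Slc39a4 after AICAR turned to 0.025 under cyclic loess. The cause of these changes was not tested. Correlations between groups of the deviation of replicate 1 from replicate 2 ran from -0.04 to 0.16, the largest between vehicle and dexamethasone. With 1 such deviation per group, they do not settle whether the replicate numbers pair the arrays. The replicate block changed no call of the 7 genes, with counts of 4, 1, 5, 6, 6 and 3, but ended those of Slc30a10 after both agents (adjusted p = 0.0577) and of Slc39a3 for the interaction (0.0519). Over all probe sets, 5726 were called after dexamethasone and 3738 without replicate 2 of vehicle, 4011 after AICAR against 2345 with the compared groups alone, 6048 with the trended prior and 1447 to 1989 without 1 array at a time. For the combination against dexamethasone 6233 were called, against 3698 and 3823 without replicates 1 and 2 of the combination, and for the interaction 4858, against 2910 and 3041 without these and 3130 without replicate 1 of AICAR. Centring moved the share of calls that were higher from 47.0% to 57.6% after dexamethasone, from 42.2% to 56.1% after AICAR and from 55.1% to 44.0% for the interaction. The 2 arrays a group limit what can be called. Changes of 0.5 were recovered in 42% of simulated cases for dexamethasone against vehicle. That simulation held far fewer changes than the data (170 calls against 5726), so its adjusted threshold was stricter and the share does not carry over.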

Other observations

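Metallothioneins also bind copper. Of 13 genes of copper handling measured, 2 were called higher and 2 lower after dexamethasone, 1 and 2 after AICAR, and 2 and 4 after both agents. Of all genes, 8.37% were called higher and 14.3% lower after dexamethasone, 6.22% and 8.96% after AICAR, and 15.9% and 18.4% after both, so these counts are near the shares over all genes. Slc31a1, the copper importer CTR1, rose by 0.57 after dexamethasone. Cox17, the copper chaperone of cytochrome oxidase, rose by 0.71 after both agents and was called lower after AICAR (-0.32), with an interaction of 0.85. Atox1, the chaperone of the copper ATPases, rose by 0.58 after both, while Ccs, the chaperone of superoxide dismutase, was lower (-0.56), as was Steap3 (-0.999).

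Interleukin-6 signalling through STAT3 is known to act on metallothioneins and Slc39a14 in liver, and a list of its receptor, signalling and response genes held members called in both directions. Of 19 measured, 7 were called higher and 1 lower after dexamethasone, 8 and 1 after AICAR, and 6 and 4 after both agents. Lcn2, an iron-siderophore carrier of the acute phase, rose by 5.88 after AICAR and 4.49 after both. Lbp, the lipopolysaccharide-binding protein, rose by 2.88 after AICAR and had an interaction of -2.68, the sign seen for Mt2A. A2m, a protease inhibitor, rose by 4.22 after dexamethasone and 4.27 after both but was lower after AICAR (-1.89), with an interaction of 1.93. The interaction was called lower for 8 of the 19 genes and higher for 2, where 8.05% of all genes were called lower and 11.9% higher. The shares of all genes in the other comparisons are those given for copper handling. These adjusted calls are from limma with Benjamini-Hochberg adjustment over all probe sets.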
